A study of Arabidopsis thaliana with 12 samples.

Results

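The type-A response regulators of Arabidopsis are the 10 genes ARR3 (AT1G59940), ARR4 (AT1G10470), ARR5 (AT3G48100), ARR6 (AT5G62920), ARR7 (AT1G19050), ARR8 (AT2G41310), ARR9 (AT3G57040), ARR15 (AT1G74890), ARR16 (AT2G40670) and ARR17 (AT3G56380), and they were taken by these identifiers from the 33602 genes counted in each shoot library. The libraries hold polyadenylated RNA from shoots of Col-0 seedlings, an unmutated laboratory accession, aged 4 days after germination and grown on agar medium in constant light. Seedlings were moved for 8 h to plates with AZD8055 at 2 µM, KU63794 at 20 µM, TORIN1 at 10 µM, or the solvent DMSO alone (mock), with 3 libraries per group. The 3 compounds inhibit the active site of TOR, the protein kinase that couples growth to nutrient and energy supply, and the study asked for genes that respond early in the shoot. The doses differed between compounds, so a difference between inhibitors cannot be assigned to the compound or to its dose: these cannot be told apart here. Whether replicate libraries came from separate plates or cultures is not stated, and p-values therefore measure only the spread among these libraries, which may be technical.

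Cytokinin is a plant hormone that promotes cell division in the shoot and is sensed by histidine kinase receptors. Phosphate passes from the receptors through AHP phosphotransfer proteins to type-B response regulators, which are transcription factors that bind DNA at the short core motifs AGATT and GGATT. Their best known targets are the type-A genes, which are induced by cytokinin within minutes and whose small receiver-domain proteins lack the DNA-binding part and dampen cytokinin signalling. The family is widely used as a transcript readout of cytokinin response. It falls into pairs of close relatives, and the coding sequences had 83.2% identity between ARR3 and ARR4, 81.4% between ARR5 and ARR6, 79.0% between ARR7 and ARR15, 81.3% between ARR8 and ARR9 and 84.2% between ARR16 and ARR17.

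The 250 bases in front of the annotated gene start (RefSeq, TAIR10.1) are shown for the 3 genes whose level differed between TORIN1 and the other inhibitors, ARR4, ARR6 and ARR7, and for ARR5, the closest relative of ARR6. Capitals mark AGATT or GGATT, or the same motif on the other strand, which reads AATCT or AATCC. The windows lie on the minus strand at chr1:3444361-3444610 for ARR4, chr5:25254319-25254568 for ARR6, chr1:6579315-6579564 for ARR7 and chr3:17760951-17761200 for ARR5.
ARR4: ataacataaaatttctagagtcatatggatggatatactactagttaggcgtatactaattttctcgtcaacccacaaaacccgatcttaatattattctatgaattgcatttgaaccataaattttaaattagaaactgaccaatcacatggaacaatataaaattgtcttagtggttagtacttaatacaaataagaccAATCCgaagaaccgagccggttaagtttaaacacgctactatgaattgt
ARR6: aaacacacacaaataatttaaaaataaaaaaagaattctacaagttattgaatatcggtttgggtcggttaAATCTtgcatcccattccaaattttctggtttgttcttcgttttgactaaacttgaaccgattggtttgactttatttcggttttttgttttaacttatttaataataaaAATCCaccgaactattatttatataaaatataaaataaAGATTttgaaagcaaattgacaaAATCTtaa
ARR7: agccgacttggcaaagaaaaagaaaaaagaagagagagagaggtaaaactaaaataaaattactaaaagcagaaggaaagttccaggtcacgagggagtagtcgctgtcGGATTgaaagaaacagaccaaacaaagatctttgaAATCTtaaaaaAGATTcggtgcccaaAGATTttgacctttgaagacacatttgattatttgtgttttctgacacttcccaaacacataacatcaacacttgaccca
ARR5: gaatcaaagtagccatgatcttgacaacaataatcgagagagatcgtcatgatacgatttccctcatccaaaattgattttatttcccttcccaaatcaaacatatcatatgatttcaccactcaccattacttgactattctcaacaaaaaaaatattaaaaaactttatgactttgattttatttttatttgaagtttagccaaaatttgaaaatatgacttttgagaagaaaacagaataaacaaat
ARR6 and ARR7 held 4 matches each in this window, ARR4 held 1 and ARR5 held 0. Of ARR6's matches, 3 were AGATT, at -179, -31 and -8 from the gene start, and 1 was GGATT, at -69. In ARR7 GGATT lay at -141 and AGATT at -106, -95 and -80. The other members had 1 match (ARR15 and ARR17) or 2 (ARR3, ARR8, ARR9 and ARR16). Such short motifs are common: 77.5% of the same windows before 27443 protein-coding genes held AGATT or GGATT on either strand, with a median of 1 match. Of these windows 63.7% held AGATT and 38.0% held GGATT. In the 1000 bases before the gene start 99.8% of these genes had a match, with a median of 6, and the 10 members had 6 to 10. A match describes the letters only, and says nothing about binding in these shoots.

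Total counts were 7706957 to 14696645 per library, and 3 counts, the limit that a count of 0 allows, equal 0.205 to 0.391 CPM (counts per 1000000 of the library total after TMM scaling; counting error only). Replicates differed by more than sampling noise in each group, and 9830 genes had 0 counts in all 12 libraries. Summed levels of 5 shoot markers were 35600 to 54000 CPM with AZD8055, 35900 to 37400 with KU63794, 38300 to 57000 with TORIN1 and 38800 to 41400 in mock. The 10 root markers together reached 9.78 to 11 CPM with AZD8055, 10.5 to 12.1 with KU63794, 4.35 to 8.17 with TORIN1 and 10.2 to 15.4 in mock. With TORIN1 5 root markers had no count, against 4 with AZD8055, 0 with KU63794 and 0 in mock, and of the 4 that could be tested CASP1, an endodermal gene, was lower with TORIN1 than in mock (log2 fold change -0.81, SE 0.26, edgeR adjusted p = 0.0387). The 4 shoot meristem markers summed to 14.6 to 25.6 CPM with AZD8055, 21.3 to 26.7 with KU63794, 13.2 to 24 with TORIN1 and 21.2 to 21.9 in mock, and WUS had no count in any library. The 5 stomatal lineage markers summed to 37.5 to 39.5 CPM with AZD8055, 31.2 to 38.4 with KU63794, 35.8 to 41.8 with TORIN1 and 34.2 to 39.1 in mock. The part of root tissue or of meristem in the results below was not tested.

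The family as a whole was lower with AZD8055 and KU63794 than with TORIN1 or in mock. Expressed per kilobase of exon, so that genes of different length can be added, the 10 genes summed to 60.8, 69.7 and 65.1 CPM per kb with AZD8055, 59.1, 64.7 and 55.3 with KU63794, 89.3, 110.0 and 106.0 with TORIN1, and 126.0, 121.0 and 118.0 in mock. The TORIN1 libraries lay between the others, above each library of the other 2 inhibitors and below each mock library. In whole shoots, fewer cells that express a gene and less RNA per cell cannot be told apart.

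**Figure D1:**
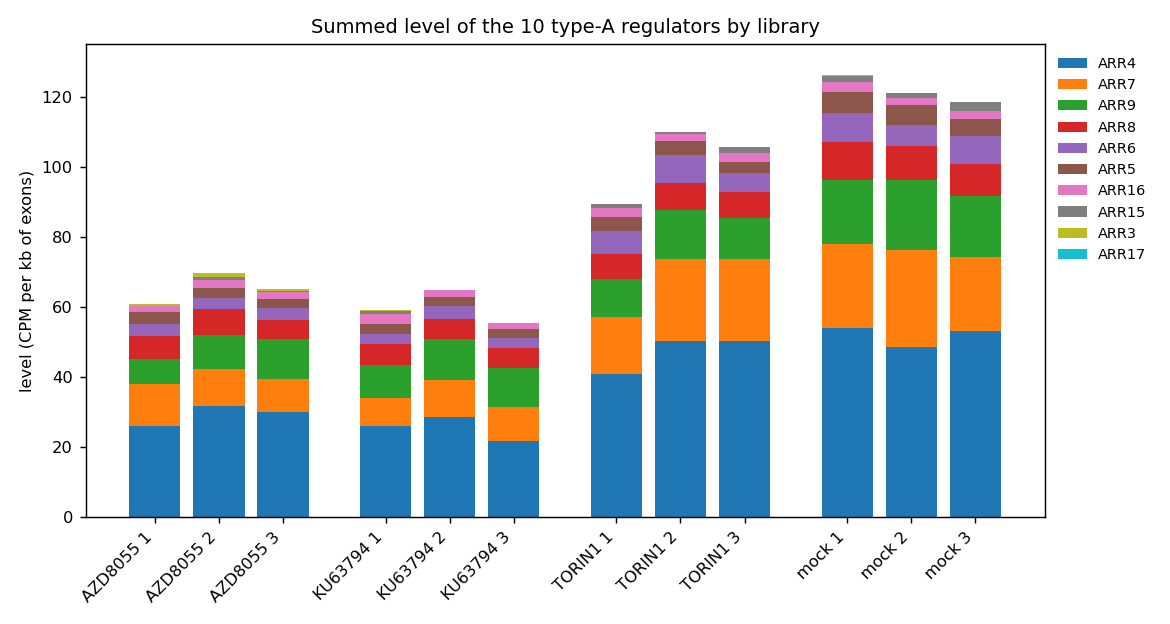
Stacked bars give the level of each type-A regulator in CPM per kb of exons in each of the 12 libraries, 3 per group. The stacks reach 60.8 to 69.7 with AZD8055, 55.3 to 64.7 with KU63794, 89.3 to 110.0 with TORIN1 and 118.0 to 126.0 in mock, and ARR4 is the lowest and tallest segment in each.

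ARR4 was the most abundant member per length in all 4 groups, with 29.2 ± 3.02 CPM per kb with AZD8055, 25.3 ± 3.39 with KU63794, 47.0 ± 5.46 with TORIN1 and 51.9 ± 2.87 in mock (mean ± SD, n = 3). It made up 44.7% ± 1.93 of the summed family level with AZD8055, 42.3% ± 2.69 with KU63794, 46.2% ± 1.05 with TORIN1 and 42.6% ± 2.30 in mock. In mock the order then ran ARR7 (24.3 ± 3.31 CPM per kb), ARR9 (18.5 ± 1.23), ARR8 (9.95 ± 0.752), ARR6 (7.37 ± 1.26), ARR5 (5.57 ± 0.466), ARR16 (2.32 ± 0.521) and ARR15 (1.86 ± 0.547). Only the neighbours ARR16 and ARR15 overlapped among these mock levels, at 1.83 to 2.87 against 1.32 to 2.42 CPM per kb, though ARR6 and ARR5 came within the rounding of each other at 5.93 and 5.9. With TORIN1 ARR7 stood apart from ARR9, at 16.5 to 23.6 against 10.8 to 14.0 CPM per kb. With AZD8055 these neighbours overlapped, at 9.39 to 12.1 for ARR7 and 7.01 to 11.4 for ARR9. With KU63794 the mean of ARR9 (10.7 ± 1.27) was above that of ARR7 (9.49 ± 1.28), again with overlapping libraries. The order below ARR4 and the shares depend on the RefSeq TAIR10.1 exon lengths, 943 bases for ARR7, 1894 for ARR9 and 2370 for ARR8. Whether the gene models used in counting have the same lengths was not checked. Before division by length, the mock means of ARR9 (35 CPM) and ARR8 (23.6) were above that of ARR7 (22.9). With TORIN1 ARR9 (23 CPM) was likewise above ARR7 (20).

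Against mock, 6 of the 8 members with enough counts to be tested were lower with AZD8055, and 6 were lower with KU63794: ARR4, ARR5, ARR6, ARR7, ARR8 and ARR9 in both cases. With TORIN1 3 were lower, ARR5, ARR8 and ARR9, and 0 members were higher with any inhibitor. Among all 17933 genes tested, 16.1% were lower and 14.4% higher with AZD8055, 14.3% lower and 11.1% higher with KU63794, and 10.3% lower and 9.87% higher with TORIN1. The median log2 fold change of the 8 members was -0.97 with AZD8055, -1.04 with KU63794 and -0.32 with TORIN1. Over all tested genes it was 0 with AZD8055, 0.01 with KU63794 and -0.01 with TORIN1. All inhibitor libraries lay below all mock libraries for 7 of the 8 members with AZD8055 (22.8% of all tested genes), 7 with KU63794 (23.3%) and 3 with TORIN1 (21.6%). The low-count filter keeps a gene that has counts in 1 group only, so these counts describe the genes that passed it. The 3 comparisons share the mock libraries, and their values are therefore given side by side and not as independent results.

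**Figure D2:**
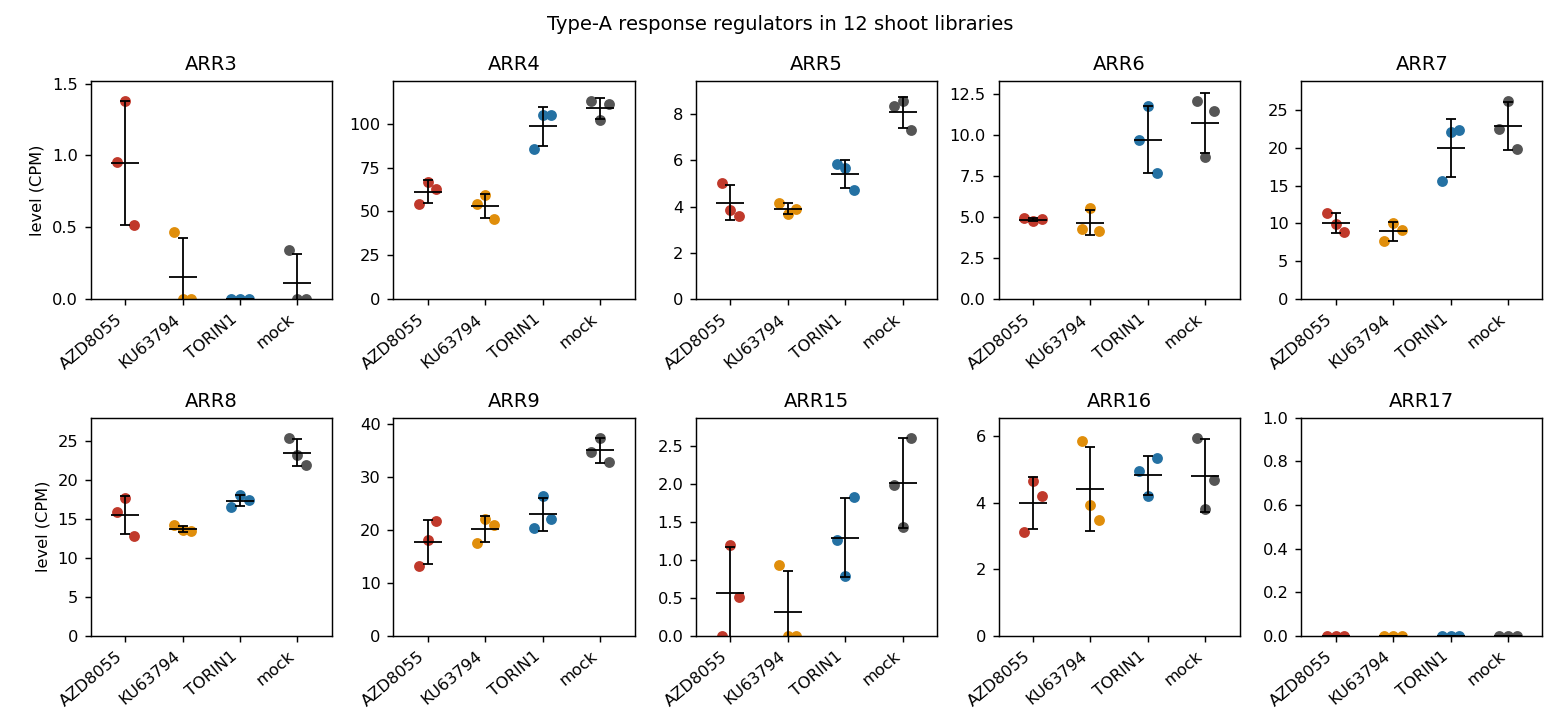
Points are the 12 libraries and give the level of each type-A regulator in CPM, with the mean (bar) and SD (whiskers, n = 3, shown from 0 upwards) of each group. Each panel has its own axis: ARR4, ARR6 and ARR7 are low with AZD8055 and KU63794 and overlap mock with TORIN1, ARR5, ARR8 and ARR9 are below mock with each inhibitor, and ARR17 is at 0 throughout.

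ARR4, a regulator also known to interact with the photoreceptor phytochrome B, had 54.3, 66.6 and 63.0 CPM with AZD8055, 54.3, 59.5 and 45.5 with KU63794, 85.5, 105 and 105 with TORIN1, and 113, 102 and 111 in mock. The AZD8055 and KU63794 libraries were all below the lowest TORIN1 library, while TORIN1 and mock overlapped. Its log2 fold change was -0.83 with AZD8055 (SE 0.12, adjusted p = 0.000102), a level that fell by 43.7%, and -1.04 with KU63794 (SE 0.12, adjusted p = 2.06e-05), where it fell by 51.2%. With TORIN1 it was -0.14 with a 95% interval of -0.39 to 0.1 (adjusted p = 0.433). ARR3, its closest relative, had 11, 14 and 6 counts with AZD8055, 6, 0 and 0 with KU63794, 0, 0 and 0 with TORIN1 and 5, 0 and 0 in mock. It did not pass the low-count filter and was not tested. The transcripts of this pair share an exact stretch of 41 bases, and so do those of ARR8 and ARR9. How reads that fit both genes of a pair were counted is not given in the sources used here.

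ARR6 and ARR7 showed the same order of groups as ARR4. ARR7, known as a gene that the stem cell factor WUSCHEL represses in the shoot meristem, had 11.4, 9.98 and 8.86 CPM with AZD8055, 7.66, 10.1 and 9.13 with KU63794, 15.6, 22.1 and 22.3 with TORIN1, and 22.5, 26.2 and 19.9 in mock. TORIN1 replicate 1 was the lowest of the 3 TORIN1 libraries for ARR7 and for ARR4, and still lay above each library of the other inhibitors. The log2 fold change of ARR7 was -1.18 with AZD8055 (SE 0.17, adjusted p = 0.000102), -1.36 with KU63794 (SE 0.17, adjusted p = 4.08e-05) and -0.20 with TORIN1 (95% interval -0.54 to 0.14, adjusted p = 0.429). ARR6, a primary cytokinin response gene, had 4.94, 4.74 and 4.90 CPM with AZD8055, 4.30, 5.58 and 4.15 with KU63794, 9.72, 11.8 and 7.70 with TORIN1, and 12.1, 8.66 and 11.5 in mock. The TORIN1 and mock libraries of ARR6 overlapped over most of their range, and each was above the highest AZD8055 and KU63794 library. Its log2 fold change was -1.14 with AZD8055 (SE 0.19, adjusted p = 0.00047), -1.20 with KU63794 (SE 0.19, adjusted p = 0.000366) and -0.15 with TORIN1 (95% interval -0.55 to 0.24, adjusted p = 0.615).

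The ARR6 gene overlaps AT5G62910 on the opposite strand by 348 bases, and the strand setting of the counting is not given, so reads of the 2 genes may be shared. AT5G62910 had 5.72, 6.72 and 8.68 CPM with AZD8055, 6.57, 9.35 and 6.89 with KU63794, 7.29, 6.91 and 7.09 with TORIN1 and 6.98, 7.42 and 6.39 in mock. Its 4 groups overlapped. ARR8 and ARR9 overlap AT2G09250 and AT3G08825, also on the opposite strand, by 299 and 231 bases, and these genes are not among those counted.

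ARR5, ARR8 and ARR9 were lower with all 3 inhibitors. ARR5, the close relative of ARR6 and a common cytokinin reporter, had 5.03, 3.85 and 3.61 CPM with AZD8055, 4.14, 3.69 and 3.90 with KU63794, 5.83, 5.66 and 4.73 with TORIN1, and 8.35, 8.56 and 7.30 in mock. No inhibitor library of ARR5 reached the lowest mock library, and the TORIN1 libraries overlapped those of AZD8055. Its log2 fold change was -0.96 with AZD8055 (SE 0.18, adjusted p = 0.000887), -1.05 with KU63794 (SE 0.18, adjusted p = 0.000509) and -0.59 with TORIN1 (SE 0.17, adjusted p = 0.0269).

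ARR8 and ARR9 form a pair that is known to respond to cytokinin less strongly than ARR5 or ARR6. ARR8 had 15.9, 17.7 and 12.9 CPM with AZD8055, 14.2, 13.6 and 13.5 with KU63794, 16.6, 18.1 and 17.5 with TORIN1, and 25.5, 23.2 and 22.0 in mock. All 9 inhibitor libraries were below the lowest mock library. The log2 fold changes of ARR8 were -0.61 with AZD8055 (SE 0.12, adjusted p = 0.00143), -0.78 with KU63794 (SE 0.12, adjusted p = 0.000277) and -0.44 with TORIN1 (SE 0.12, adjusted p = 0.0178). ARR9 had 13.3, 18.2 and 21.7 CPM with AZD8055, 17.5, 22.1 and 21.0 with KU63794, 20.4, 26.5 and 22.1 with TORIN1, and 34.8, 37.5 and 32.9 in mock. Here too the groups of inhibitor and mock libraries did not overlap, and the inhibitors overlapped among themselves. The log2 fold changes of ARR9 were -0.99 with AZD8055 (SE 0.16, adjusted p = 0.000302), -0.79 with KU63794 (SE 0.16, adjusted p = 0.00171) and -0.61 with TORIN1 (SE 0.16, adjusted p = 0.0131).

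The TORIN1 calls of these 3 genes each depended on single libraries. The call of ARR5 was lost without mock replicate 1 (adjusted p = 0.0881), mock replicate 2 (0.0986), TORIN1 replicate 2 (0.06) or TORIN1 replicate 3 (0.12). ARR8 lost it without mock replicate 1 (0.0859), TORIN1 replicate 1 (0.0584) or TORIN1 replicate 3 (0.0572), and ARR9 without mock replicate 2 (0.0613), TORIN1 replicate 1 (0.0534) or TORIN1 replicate 3 (0.0558). The log2 fold changes in these fits ran from -0.62 to -0.38, and the 6 calls with AZD8055 and the 6 with KU63794 held in all 22 alternatives.

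ARR15, ARR16 and ARR17 gave no call. ARR15, the relative of ARR7, had 0, 12 and 6 counts with AZD8055, 12, 0 and 0 with KU63794, 13, 7 and 24 with TORIN1, and 29, 15 and 20 in mock. These counts equal 0, 1.19 and 0.516 CPM with AZD8055, 0.938, 0 and 0 CPM with KU63794, 1.26, 0.793 and 1.83 CPM with TORIN1, and 1.99, 1.43 and 2.61 CPM in mock. The AZD8055 and KU63794 libraries were all below mock and those of TORIN1 overlapped it. The log2 fold changes were -1.83 with AZD8055 (95% interval -3.86 to 0.2, adjusted p = 0.164), -2.60 with KU63794 (-4.75 to -0.46, adjusted p = 0.0736) and -0.58 with TORIN1 (-2.41 to 1.25, adjusted p = 0.689). These wide intervals include the changes of ARR7, which the counts of ARR15 could not resolve. limma voom called ARR15 lower with AZD8055 (adjusted p = 0.0396) and KU63794 (0.0252), and edgeR called it with KU63794 without AZD8055 replicate 1 (0.0356) or KU63794 replicate 1 (0.00482).

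ARR16 had 3.12, 4.64 and 4.21 CPM with AZD8055, 5.86, 3.93 and 3.48 with KU63794, 4.96, 4.19 and 5.34 with TORIN1, and 5.96, 3.80 and 4.69 in mock. The 4 groups overlapped. Its log2 fold changes were -0.29 with AZD8055 (95% interval -0.81 to 0.24, adjusted p = 0.419), -0.13 with KU63794 (-0.65 to 0.38, adjusted p = 0.743) and 0 with TORIN1 (-0.52 to 0.51, adjusted p = 0.997). With AZD8055 and KU63794 these intervals do not reach the fitted changes of ARR6 and ARR7. ARR17 had 0 counts in all 12 libraries, so that its level may still reach 0.205 to 0.391 CPM, depending on the library.

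**Figure D3:**
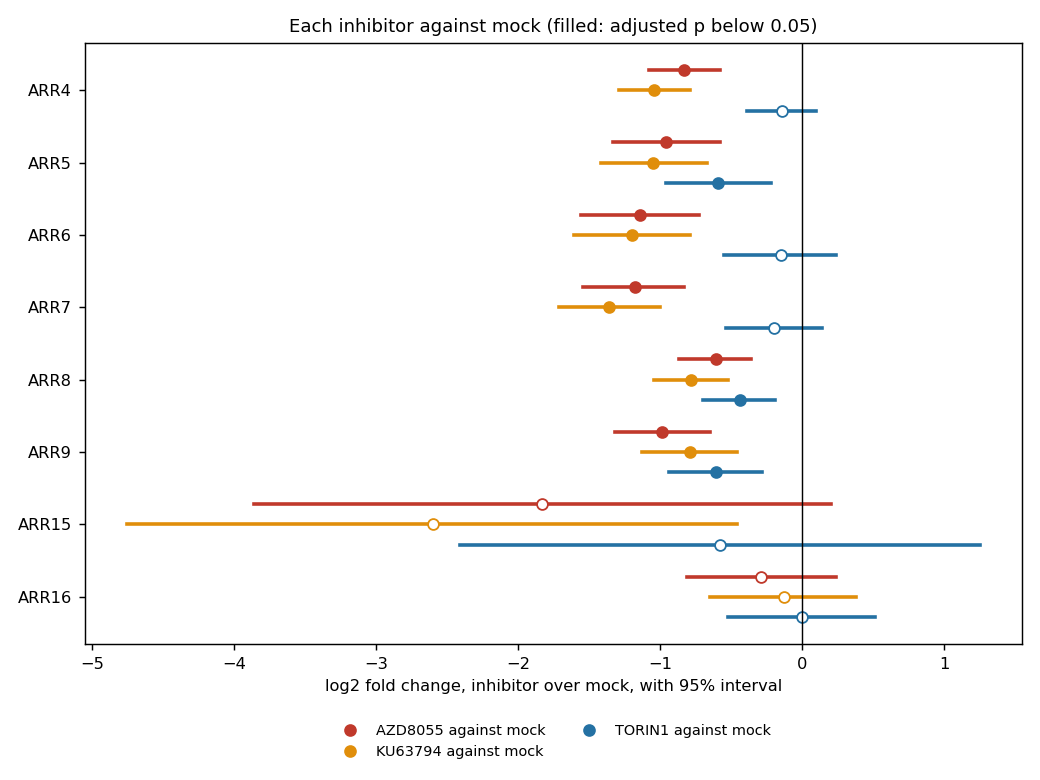
Points give the log2 fold change of each tested type-A regulator, inhibitor over mock, with its 95% interval from the edgeR fit on 12 libraries, and filled points have an adjusted p below 0.05. ARR4, ARR6 and ARR7 are filled at -0.83 to -1.36 with AZD8055 and KU63794 and open at -0.14 to -0.20 with TORIN1, and the intervals of ARR15 are the widest.

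The difference between TORIN1 and the other inhibitors was tested directly, as TORIN1 over the mean of AZD8055 and KU63794 on the log2 scale. It passed for ARR4, ARR6 and ARR7, 3 of the 8 tested members, all higher with TORIN1, while 3.31% of all tested genes were higher in this comparison. The differences were 0.79 for ARR4 (95% interval 0.58 to 1, adjusted p = 0.00187), 1.02 for ARR6 (0.67 to 1.37, adjusted p = 0.00709) and 1.07 for ARR7 (0.77 to 1.37, adjusted p = 0.00275), or 1.73-fold, 2.02-fold and 2.1-fold. For these 3 genes each TORIN1 library was above each AZD8055 and KU63794 library, a separation that 6.9% of all tested genes showed. ARR4 and ARR7 held their calls in all 22 alternatives, and ARR6 lost its call without TORIN1 replicate 2 (0.86, adjusted p = 0.0558).

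For the other 5 tested members this difference did not pass, with intervals that allow a sizeable difference in some. It was 0.41 for ARR5 (95% interval 0.08 to 0.75, adjusted p = 0.146), 0.25 for ARR8 (0.03 to 0.48, adjusted p = 0.192) and 0.28 for ARR9 (-0.01 to 0.57, adjusted p = 0.269). The upper limits of ARR8 and ARR9 lie below the lower limits of ARR6 and ARR7, though no test set these genes against each other. ARR16 differed by 0.21 (-0.24 to 0.66, adjusted p = 0.63), and ARR15 by 1.63 with an interval from -0.14 to 3.41 (adjusted p = 0.287). Without KU63794 replicate 1, the only KU63794 library with ARR15 counts, the fit called ARR15 higher (adjusted p = 0.0461). All 8 differences were above 0, with a median of 0.60 against 0.01 over all tested genes.

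Against each inhibitor alone the same 3 members passed. These comparisons share the TORIN1 libraries, and the comparison with the mean is their average, so they are not independent results. TORIN1 exceeded AZD8055 by 0.69 in ARR4 (SE 0.12, adjusted p = 0.0155), 0.99 in ARR6 (SE 0.2, adjusted p = 0.0283) and 0.98 in ARR7 (SE 0.17, adjusted p = 0.0155), where 1.3% of all tested genes were higher. Over KU63794 the differences were 0.89 in ARR4 (SE 0.12, adjusted p = 0.00743), 1.05 in ARR6 (SE 0.19, adjusted p = 0.0223) and 1.16 in ARR7 (SE 0.17, adjusted p = 0.0103), where 2.21% of all tested genes were higher. Libraries did not overlap for 3 members against AZD8055 and for 5 against KU63794, ARR5 and ARR8 being the additional ones, against 11.1% and 15.7% of all tested genes. These pairwise calls rested on few libraries. Without TORIN1 replicate 2 or replicate 3 each of the 6 calls was lost, with adjusted p of 0.0862 and 0.083 for ARR4, 0.12 and 0.0567 for ARR6 and 0.0858 and 0.0876 for ARR7 over AZD8055, and of 0.0552 and 0.0659, 0.107 and 0.07, and 0.0603 and 0.07 over KU63794. ARR6 also lost it without AZD8055 replicate 3 (0.0774) or TORIN1 replicate 1 (0.0513) over AZD8055 and without KU63794 replicate 1 (0.0506) over KU63794, and ARR7 without AZD8055 replicate 3 (0.0593). In the fits without TORIN1 replicate 2 and without replicate 3, the genes called higher over all genes numbered 6 and 7 over AZD8055, against 234 with all libraries, and 2 and 1 over KU63794, against 397. The differences themselves stayed between 0.64 and 1.20 in these fits.

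AZD8055 and KU63794 were not distinguished in any tested member, and of all 17933 genes 0.00558% were higher and 0% lower with AZD8055 than with KU63794. The differences, AZD8055 over KU63794, were 0.21 for ARR4 (95% interval -0.04 to 0.46), 0.06 for ARR6 (-0.38 to 0.49) and 0.17 for ARR7 (-0.2 to 0.54). They were 0.09 for ARR5 (-0.3 to 0.48), 0.17 for ARR8 (-0.1 to 0.43), -0.19 for ARR9 (-0.53 to 0.15), -0.15 for ARR16 (-0.68 to 0.37) and 0.78 for ARR15 (-1.68 to 3.23). The intervals of ARR6 and ARR7 end below the differences that TORIN1 showed over the mean of the other inhibitors, while that of ARR15 leaves its sign unknown. A p that misses the threshold does not show that the compounds act alike.

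**Figure D4:**
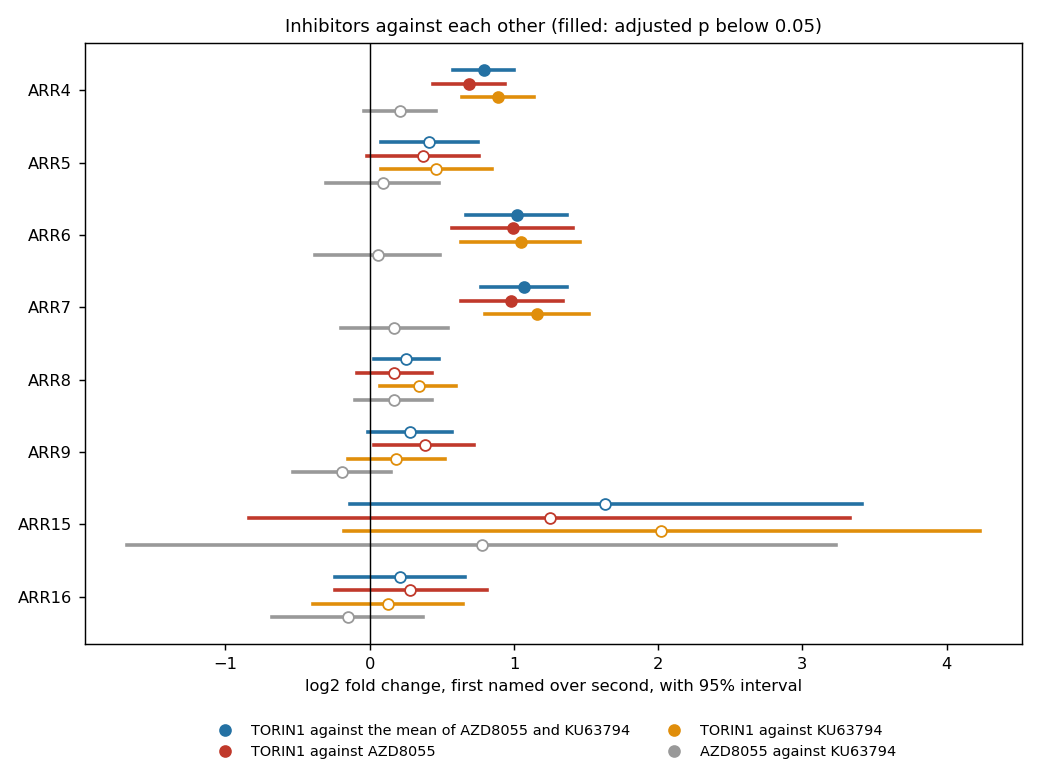
Points give the log2 difference of each tested type-A regulator between inhibitors, first named over second, with its 95% interval, and filled points have an adjusted p below 0.05. The 9 filled points are those of ARR4, ARR6 and ARR7 for TORIN1, between 0.69 and 1.16, and all points of AZD8055 against KU63794 are open. The TORIN1 comparisons share their libraries and are not independent.

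The authors' deposited tables, which list only genes with an adjusted p of at most 0.05, hold 6 of the 10 members for AZD8055, 6 for KU63794 and 3 for TORIN1, and by name they are the members given above. These tables run mock over inhibitor. In the authors' deposited table for KU63794 ARR7 had 1.21 and ARR4 0.97, and in the authors' deposited table for TORIN1 ARR5 had 0.53, ARR8 0.43 and ARR9 0.57. The lowest margin in the authors' deposited tables was that of ARR5 with TORIN1, at an adjusted p of 0.0412.

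The genes of the steps before the type-A genes were called in both directions. Of the 3 receptors, AHK4 was lower with AZD8055 (9.27 ± 2.16 CPM) and KU63794 (9.89 ± 0.296) than in mock (15 ± 1.88), with log2 fold changes of -0.69 (adjusted p = 0.0051) and -0.60 (adjusted p = 0.0134). With TORIN1 AHK4 had 11.7 ± 0.833 CPM and a log2 fold change of -0.35 (adjusted p = 0.141), and its KU63794 call was lost without mock replicate 3 (0.0656). The other 2 receptors did not pass with any inhibitor. Of the 5 tested AHP genes, 1 was lower with AZD8055, 1 higher with KU63794, and 2 higher and 1 lower with TORIN1. The shares over all tested genes were 16.1% lower and 14.4% higher with AZD8055, and 14.3% lower and 11.1% higher with KU63794. With TORIN1 they were 10.3% lower and 9.87% higher. Nothing particular to the receptors or the AHP genes is read from counts this small. AHP4 had 35.3 ± 4.25 CPM with TORIN1, against 15.7 ± 3.13 in mock (log2 fold change 1.15, SE 0.22, adjusted p = 0.0024). With AZD8055 and KU63794 AHP4 had 16.1 ± 2.6 and 17.4 ± 5.51 CPM, and TORIN1 exceeded their mean by 1.08 (adjusted p = 0.00828), which no longer passed without TORIN1 replicate 3 (0.0515). AHP1 had 9.14 ± 2.67 CPM with TORIN1, against 19.2 ± 2.67 in mock (log2 fold change -1.09, adjusted p = 0.00637). With AZD8055 AHP1 changed by -0.73 (adjusted p = 0.0307), a call lost without mock replicate 1 (0.122) or 2 (0.0579) or AZD8055 replicate 1 (0.106) or 3 (0.0598). AHP2 differed by 0.33 with KU63794 (adjusted p = 0.032) and by 0.31 with TORIN1 (adjusted p = 0.0492). Its KU63794 call was lost without any 1 mock library or without KU63794 replicate 1 or 3 (0.0747 to 0.0969), and its TORIN1 call with limma voom (0.0545), without robust fitting (0.0526), with no filter on low counts (0.0621), with other scalings (up to 0.16) and without any 1 mock or TORIN1 library, AZD8055 replicate 2 or KU63794 replicate 1 or 3 (0.06 to 0.137). With AZD8055 AHP2 had 0.20 (adjusted p = 0.162), and passed without AZD8055 replicate 1 (0.015).

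No tested type-B regulator, the activators of the type-A genes, was called lower with AZD8055 or KU63794. Of 6 tested, 3 were higher with AZD8055 and 2 with KU63794, while TORIN1 had 2 higher and 1 lower. Among all tested genes AZD8055 had 14.4% higher and 16.1% lower, and KU63794 had 11.1% higher and 14.3% lower. TORIN1 had 9.87% higher and 10.3% lower. At these shares, the lack of a lower call among 6 genes with AZD8055 or KU63794 is not read as particular to the type-B genes. ARR10 had 15.2 ± 0.978 CPM with AZD8055, 15.9 ± 0.749 with KU63794, 14.9 ± 2.37 with TORIN1 and 9.52 ± 2.04 in mock. Its log2 fold changes were 0.66 with AZD8055 (adjusted p = 0.00557), 0.72 with KU63794 (0.00337) and 0.63 with TORIN1 (0.0115), and the TORIN1 call was lost without mock replicate 2 (0.0624) or TORIN1 replicate 3 (0.0728). ARR2 had 15.7 ± 1.36 CPM with AZD8055, 13.6 ± 1.64 with KU63794, 10.7 ± 1.09 with TORIN1 and 8.67 ± 0.551 in mock, and passed with AZD8055 (0.85, adjusted p = 0.000296) and KU63794 (0.64, adjusted p = 0.00301). TORIN1 was below the mean of the other inhibitors in ARR2 by a log2 difference of -0.46 (SE 0.12, adjusted p = 0.0433), where 0.708% of all tested genes were lower. This call was lost with library totals (0.0572), no filter on low counts (0.0514) and only the groups compared (0.0885), and without any 1 of the mock or TORIN1 libraries, AZD8055 replicate 1 or 3 or KU63794 replicate 2 or 3 (0.0503 to 0.236). ARR14 rose by 0.67 with AZD8055 (adjusted p = 0.0114) and by 0.80 with TORIN1 (adjusted p = 0.00661), and had 0.47 with KU63794 (adjusted p = 0.0764), which passed with library totals only (0.52, 0.0326), with only the groups compared (0.47, 0.0436) and without TORIN1 replicate 1 (0.0477) or 3 (0.0459). ARR11 had 1.6 ± 0.244 CPM with TORIN1, against 2.87 ± 0.724 in mock (-0.85, adjusted p = 0.0443). That call was lost with DESeq2 (0.0841), limma voom (0.0523), no filter on low counts (0.0579) and without any 1 of the TORIN1 libraries, mock replicate 1 or 2 or KU63794 replicate 3 (0.0556 to 0.221). Of the 4 KMD genes, whose F-box proteins target type-B regulators for breakdown, KMD1 had 0.873 ± 0.242 CPM with TORIN1, against 6.37 ± 1.09 in mock (-2.82, SE 0.57, adjusted p = 0.00471). KMD1 had 2.19 ± 0.125 CPM with AZD8055 (-1.53, adjusted p = 0.0372), a call lost with limma voom (0.0751) and without any 1 of the mock or AZD8055 libraries or TORIN1 replicate 2 (0.0515 to 0.107), and ranged from 1.17 to 8.87 CPM with KU63794. Without KU63794 replicate 2 KMD1 was called lower there (-1.26, adjusted p = 0.0331).

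Of 11 tested genes of cytokinin synthesis and activation, 3 were higher and 2 lower with AZD8055, 3 higher and 2 lower with KU63794, and 3 higher and 1 lower with TORIN1. AZD8055 had 14.4% of all tested genes higher and 16.1% lower, KU63794 had 11.1% higher and 14.3% lower, and TORIN1 had 9.87% higher and 10.3% lower, and nothing particular to the genes of supply is read from counts this small. LOG8, which codes for an enzyme that releases the active hormone, had 91.8 ± 26.9 CPM with AZD8055, 99.0 ± 1.81 with KU63794, 100 ± 10.1 with TORIN1 and 49.2 ± 4.07 in mock and passed with AZD8055 (log2 fold change 0.90, adjusted p = 0.00133), KU63794 (1.01, 0.000696) and TORIN1 (1.03, 0.00118). LOG5, of the same family, changed by 0.85 with AZD8055 (adjusted p = 0.00529), 1.38 with KU63794 (0.000128) and 1.27 with TORIN1 (0.000637). IPT1, an adenylate isopentenyltransferase gene, changed by 1.13 with AZD8055 (adjusted p = 0.00461), 1.09 with KU63794 (0.00662) and 0.84 with TORIN1 (0.0386). Its TORIN1 call was lost with DESeq2 (0.0702), limma voom (0.056) and library totals (0.0624) and without any 1 mock library, KU63794 replicate 1 or TORIN1 replicate 2 or 3 (0.0503 to 0.171). IPT9, which codes for an enzyme that modifies transfer RNA, had 23.5 ± 1.72 CPM with AZD8055, 22.3 ± 1.51 with KU63794, 32.4 ± 3.68 with TORIN1 and 47.7 ± 3.97 in mock. Its log2 fold changes were -1.02 with AZD8055 (adjusted p = 1.2e-05), -1.10 with KU63794 (9.13e-06) and -0.56 with TORIN1 (0.00248), and TORIN1 exceeded the mean of the others by 0.50 (adjusted p = 0.0116). That difference did not pass with library totals (0.0665) or without TORIN1 replicate 2 (0.089) or 3 (0.0744). The second gene called lower with AZD8055 and KU63794, named after its values were seen, was CYP735A2, of the enzyme that makes trans-zeatin. CYP735A2 had 0.328 ± 0.345 CPM with AZD8055, 0.449 ± 0.191 with KU63794, 1.28 ± 0.46 with TORIN1 and 1.94 ± 0.14 in mock, so the first 2 levels are near the limit of a count of 0. Of 6 tested cytokinin oxidases, CKX6 differed by 0.33 with AZD8055 (adjusted p = 0.021), lost without mock replicate 2 (0.0739) or 3 (0.0793) or AZD8055 replicate 1 (0.0662). None of the 3 tested cytokinin response factors passed.

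**Figure D5:**
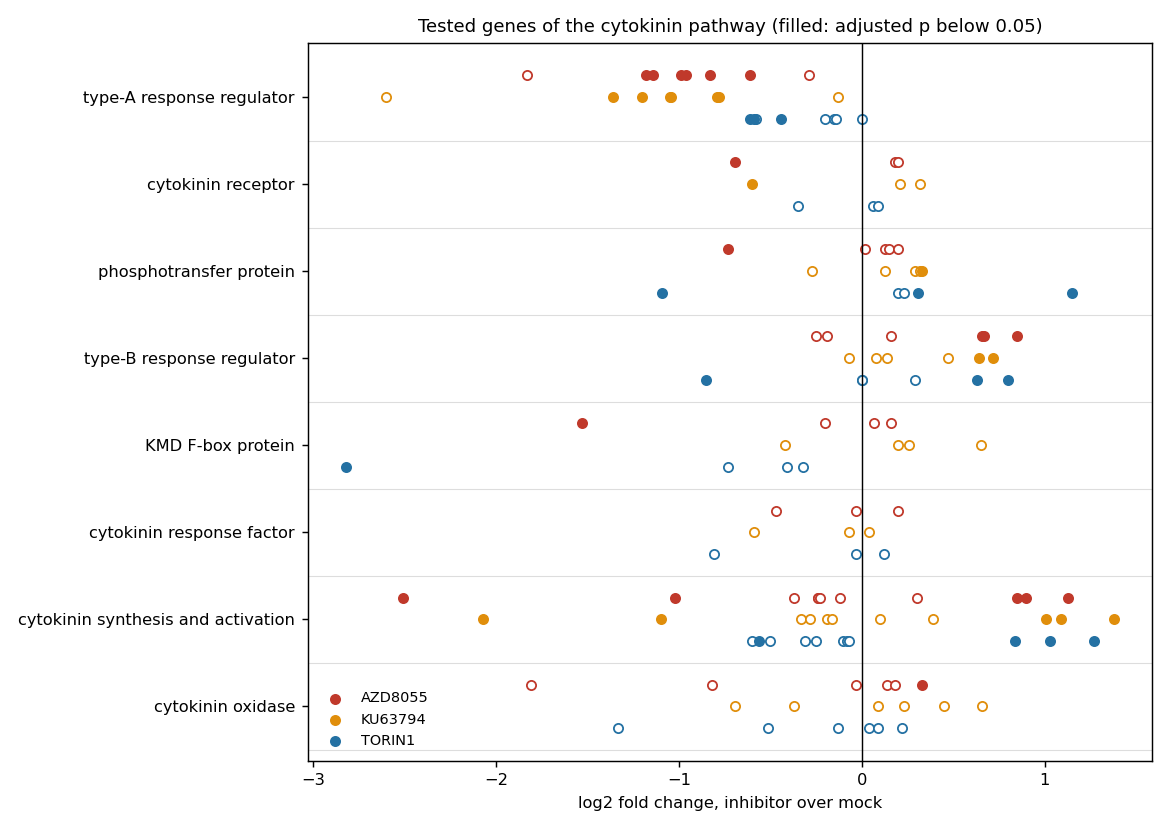
Each point is a tested gene of the cytokinin pathway and gives its log2 fold change, inhibitor over mock, with the 3 inhibitors in separate rows and filled points at an adjusted p below 0.05. The type-A regulators lie at or below 0 in each row, and the type-B row holds filled points from 0.63 to 0.85 and 1 filled point at -0.85.

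The genes whose pattern was most like the mean log2 level of the 8 tested members, by Pearson's r over the 12 libraries and out of 16880 genes, were NRPB7 (0.98), AT3G29280 (0.97), FTSZ1-1 (0.96), AT3G09890 (0.96) and AT1G26470 (0.96). The libraries share their groups and scaling, so r is a description only. NRPB7, which codes for an RNA polymerase II subunit, averaged 14.2 CPM with AZD8055, 14.5 with KU63794, 20.8 with TORIN1 and 24.7 in mock. FTSZ1-1, of plastid division, averaged 64 CPM with AZD8055, 62.3 with KU63794, 82.5 with TORIN1 and 92.3 in mock. Among the members themselves, r with this mean was highest for ARR4 (0.96) and lowest for ARR16 (0.55), each being part of the mean.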

How the data were processed

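The deposited files give raw counts per gene for 12 shoot libraries, and the authors' normalized signal, which was proportional to the counts within each library. Per the submitters' processing notes the tools were StringTie 1.3.3 and DESeq2 1.18.1 on TAIR10; which aligner and which strand setting were used is not stated there. The authors' deposited comparison tables hold log2 fold changes (mock over inhibitor), their standard errors, a Wald score and p-values; the score was not used.

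Counts were fitted in edgeR 4.0.16 (R 4.3.3) on all 12 libraries with 1 coefficient per group, TMM scaling, the default low-count filter (17933 genes) and robust quasi-likelihood tests. Tests were two-sided, adjusted by Benjamini-Hochberg over all tested genes, and called at an adjusted p below 0.05. SEs and 95% intervals follow from the test statistic. The script was tested on simulated data. Alternatives used DESeq2 1.42.0, limma 3.58.1 voom, other scalings and filters, a replicate block and leaving out each library. Levels per kb divide CPM by exon length in RefSeq TAIR10.1, whose ARR names matched all 10 identifiers; promoters came from the same release (Python 3.11.15, Biopython 1.88, matplotlib 3.10.9). All members are named; in each other pathway list up to 4 genes called against mock are named, by lowest adjusted p. Likeness used genes of at least 1 CPM and log2 CPM with a prior count of 2. The members, lists and tests were chosen with earlier results of these data known.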

Additional observations from a re-analysis of the deposited data

Results flagged for a closer look

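ARR4, ARR6 and ARR7 were flagged because their change with TORIN1 differed from that with AZD8055 and KU63794 in a direct test of the difference. TORIN1 over the mean of the other inhibitors gave 0.79 for ARR4, 1.02 for ARR6 and 1.07 for ARR7 on the log2 scale. The edgeR adjusted p values were 0.00187, 0.00709 and 0.00275, and this test called 3.31% of all tested genes higher. The 3 TORIN1 libraries were above all 6 libraries of the other inhibitors for each gene, as they were for 6.9% of all tested genes. ARR6 was less firm, and no longer passed when TORIN1 replicate 2 was left out (0.86, edgeR adjusted p = 0.0558). ARR4 and ARR7 passed in each of the 22 alternatives. Doses differed between compounds, and summed root marker levels were lowest with TORIN1; the part of either in the difference was not tested.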

How the results depend on the processing

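The 6 members called lower with AZD8055 and the 6 called lower with KU63794 remained called in all 22 alternatives, where ARR15 joined them in some. With TORIN1 against mock 3 members were called, and leaving out 1 library gave 0 to 3: 1 without mock replicate 1, mock replicate 2 or TORIN1 replicate 1, and 0 without TORIN1 replicate 3. TORIN1 against AZD8055 called 3 members, 0 with only the groups compared, and 0 to 3 with 1 library left out (1 without AZD8055 replicate 3, 0 without TORIN1 replicate 2 or 3). TORIN1 against KU63794 called 3, and 0 to 3 with 1 library left out (0 without TORIN1 replicate 2 or 3). TORIN1 against the mean of the others called 2 to 4 of the 8 members. Over all genes this comparison called 594 higher and 127 lower (82.4% higher), 860 and 287 with DESeq2, 121 and 43 with only the groups compared, and 42 to 895 higher and 7 to 214 lower with 1 library left out. Scaling by library totals alone gave 77 higher and 94 lower (45% higher) and put the median gene at -0.13, against 0.01 with TMM factors, in TORIN1 against KU63794, and ARR6 then lost its pairwise calls (0.95 over AZD8055, adjusted p = 0.0622, and 0.91 over KU63794, 0.0607). Against AZD8055 the count of genes called higher and lower was 234 and 89 (72.4% higher), 21 and 40 with library totals (34.4%), 440 and 153 with DESeq2, 119 and 37 with the replicate number as a block, 53 lower with limma voom and 6 and 5 with only the groups compared, and with 1 library left out it was 6 to 336 and 7 to 137; against KU63794 it was 397 and 108 (78.6%), 26 and 67 with library totals (28%), 822 and 308 with DESeq2, 224 and 228 higher with RLE and the authors' size factors, and 130 and 28 with only the groups compared, and with 1 library left out it was 1 to 708 and 1 to 267. TORIN1 against mock called 1770 higher and 1844 lower (49%), and 1230 and 2128 with library totals (36.6%); KU63794 against mock called 1988 and 2567 (43.6%), and 2374 and 2001 (54.3%). AZD8055 against KU63794 called 1 gene, 15 with DESeq2.

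Small differences changed sign. With 1 library left out, ARR16 ran from -0.39 to 0.07 in KU63794 against mock, -0.30 to 0.10 in AZD8055 against KU63794 and -0.01 to 0.39 in TORIN1 against KU63794 (-0.01 with library totals). In AZD8055 against KU63794, ARR5 ran from -0.07 to 0.19, ARR6 from -0.02 to 0.20 (-0.03 with library totals) and ARR15 from -0.28 to 5.65, that last value set by a group with no count. Against mock, AHP4 ran from -0.13 to 0.19 with AZD8055 (-0.01 with library totals) and -0.04 to 0.37 with KU63794, ARR11 from -0.19 to 0.17 and KMD1 from -1.26 to 0.04 with KU63794. The causes were not tested.

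Same-numbered libraries of different groups had correlations of -0.268 to 0.228 in their deviations from the group means, 3 of 18 pairs exceeded 0.1 and 5 of 12 libraries were closest to their own number, so the numbers were not taken to pair the libraries. A fit with the replicate number as a block called 6, 6 and 3 members against mock with AZD8055, KU63794 and TORIN1, and 3 in each TORIN1 comparison between inhibitors, while the TORIN1 calls of AHP2 (0.0525), ARR11 (0.0664) and IPT1 (0.0525) and the difference of ARR2 between TORIN1 and the mean of the others (0.0523) were lost. Low counts limit what can be said of ARR15 and ARR3, and ARR17 had no count.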
